A study of Homo sapiens with 4 samples.

Results

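The genes described here host small nucleolar RNAs (snoRNAs) in their introns. They were taken by name, as the sense-strand entries of GAS5, SNHG1, SNHG5, SNHG6, SNHG8, SNHG12, SNHG15, SNHG16, SNHG28 and TAF1D, which are 10 of the 57428 genes with a sense entry. Of these, 9 have a noncoding type in GENCODE release 29. TAF1D is typed there as protein-coding and encodes a subunit of SL1, the selectivity factor of RNA polymerase I, so the word noncoding does not hold for it. All 10 passed the filter on low counts.

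The study measured nascent RNA by Bru-seq, in which cells take up bromouridine and the RNA made during the pulse is captured with an antibody against the label. U2OS, a human osteosarcoma line, was used in a derivative that stably overexpresses GFP-DCP1a, a GFP fusion of a cofactor of mRNA decapping, and every library of both groups comes from that derivative under G418 selection. The hypertonic group had medium at 300 mM sodium, reached with concentrated phosphate-buffered saline, and the isotonic group had medium at 150 mM sodium with a matched volume of ordinary saline. Labelling was with 2 mM bromouridine for 30 min with no chase, and each group has 2 libraries. How long the cells were exposed, and whether replicates are separate cultures, is not stated in the labels. The p-values therefore measure only how far these libraries lie apart, and that distance may be technical.

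A snoRNA host gene is spliced like any other gene, and the snoRNA is then trimmed out of the excised intron. Box C/D snoRNAs guide 2′-O-methylation of ribosomal RNA and box H/ACA snoRNAs guide pseudouridylation, so these loci supply parts of the ribosome-building machinery. The spliced exons of many noncoding hosts carry no long reading frame and are degraded when ribosomes meet them, through nonsense-mediated decay, while the snoRNA stays. Many hosts belong to the 5′ terminal oligopyrimidine class, whose transcripts begin with a C followed by a run of pyrimidines and whose other main members encode ribosomal proteins and translation factors. GAS5 was first known as a transcript that accumulates in growth-arrested cells.

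The annotated first bases of 4 hosts are shown as examples of the pyrimidine start, which played no part in choosing the genes and was found at some of the hosts only. Capitals mark the unbroken run of C and T from the first base of the start that the largest number of a gene's GENCODE 29 transcripts share, read in the transcript's direction.
GAS5: CTTTTCgaggtagga
SNHG5: CTTTTacgtcggcct
SNHG16: CTTTTCgaggtcggc
TAF1D: CTTTTCTTCCgcacg
These starts lie at chr1:173867989 on the minus strand, chr6:85678733 on the minus strand, chr17:76557769 on the plus strand and chr11:93741494 on the minus strand of GRCh38. A first base C within a run of at least 5 pyrimidines was found at 5 of the 10 hosts (these 4 and SNHG6), against 2.73% of 17828 genes with at least 3 annotated transcripts. The starts shown were shared by 6 of 29 transcripts at GAS5, 3 of 23 at SNHG5, 2 of 8 at SNHG16 and 2 of 22 at TAF1D. SNHG8 began with a G at a start shared by 2 of its 5 transcripts. No start of SNHG15 was shared by more than 1 of its 10 transcripts, so the G read there is that of 1 start among equals.

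RefSeq places some of the starts elsewhere, and its promoter table held 8 of the 10 genes. C and T runs overlapping the 10 bases on either side of the RefSeq start were read in windows of 15 bases per side (GRCh38.p14). A run of at least 7 bases was present at 4 of the 8, against 21.3% of 35116 promoters. At the RefSeq start of GAS5 the run was 3 bases long, a length reached by 85.2% of promoters. The runs at SNHG12 and TAF1D were 12 bases long, a length reached by 4.48% of promoters. Capitals mark the run.
SNHG1, chr11:62855871-62855900, minus strand: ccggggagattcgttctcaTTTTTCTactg
SNHG12, chr1:28581859-28581888, minus strand: tcgcggcttcagcgCCCTTTCTCCCCgccg
TAF1D, chr11:93741481-93741510, minus strand: acggaaatagccaaCCCTTTTCTTCCgcac
A run of these letters is a description of the annotated start, and where transcription began in these cells was not measured.

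The snoRNAs themselves are shown by the nested entry with the highest count in each of 4 hosts, to let the cargo of a C/D and an H/ACA host be seen. In the C/D examples the capitals mark the box C letters TGATGA within the first 22 bases and the box D letters CTGA within the last 16. The C/D examples shown hold both. The highest-count entries SNORD22 in SNHG1, SNORD1A in SNHG16 and SNORD64 in SNHG28, not shown, hold CTGA there but not TGATGA.
SNORD50B in SNHG5, chr6:85677589-85677658, minus strand: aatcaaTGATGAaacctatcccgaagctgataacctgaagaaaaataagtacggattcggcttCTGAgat
SNORD5 at the TAF1D locus, chr11:93733228-93733300, minus strand: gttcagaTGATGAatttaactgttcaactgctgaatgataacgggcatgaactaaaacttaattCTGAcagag
In the H/ACA examples the capitals mark ACA within the last 8 bases, which the annotated SNORA44 does not hold.
SNORA24 in SNHG8, chr4:118279190-118279320, plus strand: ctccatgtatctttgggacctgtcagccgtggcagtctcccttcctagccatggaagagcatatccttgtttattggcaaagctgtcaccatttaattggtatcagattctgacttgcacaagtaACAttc
SNORA44 in SNHG12, chr1:28580381-28580512, minus strand: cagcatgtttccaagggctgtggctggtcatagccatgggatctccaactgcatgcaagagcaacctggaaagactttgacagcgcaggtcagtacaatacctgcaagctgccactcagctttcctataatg
Only the RNA strand was searched. Over 943 annotated snoRNA transcripts of every class, TGATGA was in the first 22 bases of 25.8%, CTGA in the last 16 of 46.1% and ACA in the last 8 of 38.6%.

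The number of snoRNAs that RefSeq places within a host differed widely. GAS5 holds 11, SNHG1 9, TAF1D 8, SNHG12 4, SNHG16 3, SNHG5 2, and SNHG6, SNHG8, SNHG15 and SNHG28 1 each. The snoRNAs of GAS5 are C/D with 1 exception (10 of 11), those of TAF1D are 6 H/ACA and 2 C/D, and SNHG12 holds 3 H/ACA and 1 C/D.

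The deposited counts summed to 28367788 for hypertonic replicate 1, 23048409 for hypertonic replicate 2, 44888307 for isotonic replicate 1 and 23410787 for isotonic replicate 2. Log2 CPM (counts scaled to the effective library size) correlated at 0.972 between the isotonic libraries and 0.891 between the hypertonic ones. This is a correlation across genes, which are not independent replicates. Antisense entries took 8.60% and 6.03% of counts in hypertonic libraries against 3.17% and 3.36% in isotonic ones. Levels per length are the authors' RPKM, which is reads per kilobase of gene over 1 constant per library. Of 8 markers of the osteosarcoma line, 4 (VIM, CDH2, SPARC and COL1A1) were at 1 RPKM or more in every library. TWIST1 was at 0 in all and ALPL was near 0. The summed level of the 8 was 27.6 to 37.8 RPKM in hypertonic and 22.9 to 29.4 RPKM in isotonic libraries. None of 10 markers of epithelial, blood, endothelial or neuronal cells reached 1 RPKM in all libraries, CD3E was at 0 in all, and their summed level was 0.995 and 1.25 RPKM in hypertonic against 0.252 and 0.165 RPKM in isotonic libraries. CD79A made up most of the hypertonic sums, at 0.792 and 0.867 RPKM against 0.0141 and 0 RPKM. The part of these differences in the results below was not tested.

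Under isotonic medium the hosts spanned almost 3 orders of magnitude in nascent level per length. SNHG1 stood at 52.1 ± 1.67 RPKM (SD, n = 2), GAS5 at 49.7 ± 4.91 RPKM and SNHG8 at 48.8 ± 5.66 RPKM, and the libraries of these 3 overlapped, so their order was not resolved. TAF1D followed at 24.2 ± 0.470 RPKM, below every library of the first 3 and above every library of the next. SNHG6 (16.6 and 13.4 RPKM), SNHG15 (10.3 and 14.3 RPKM), SNHG12 (12.2 and 10.8 RPKM) and SNHG16 (11.0 and 9.29 RPKM) formed a middle set in which neighbours overlapped. SNHG5 was at 4.37 ± 0.557 RPKM. Its deposited interval runs 16057 bases past the 3′ end of the RefSeq gene, which is 1727 bases long, so its value per length averages over much sequence outside that gene. SNHG28 was lowest, at 0.0576 ± 0.00585 RPKM. The isotonic libraries lay a median of 0.15 apart on the log2 scale over the 10 hosts, against 0.30 over the 21238 tested genes, with SNHG15 (0.60), SNHG5 (0.39), SNHG8 (0.37) and GAS5 (0.33) farther apart than that.

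**Figure D1:**
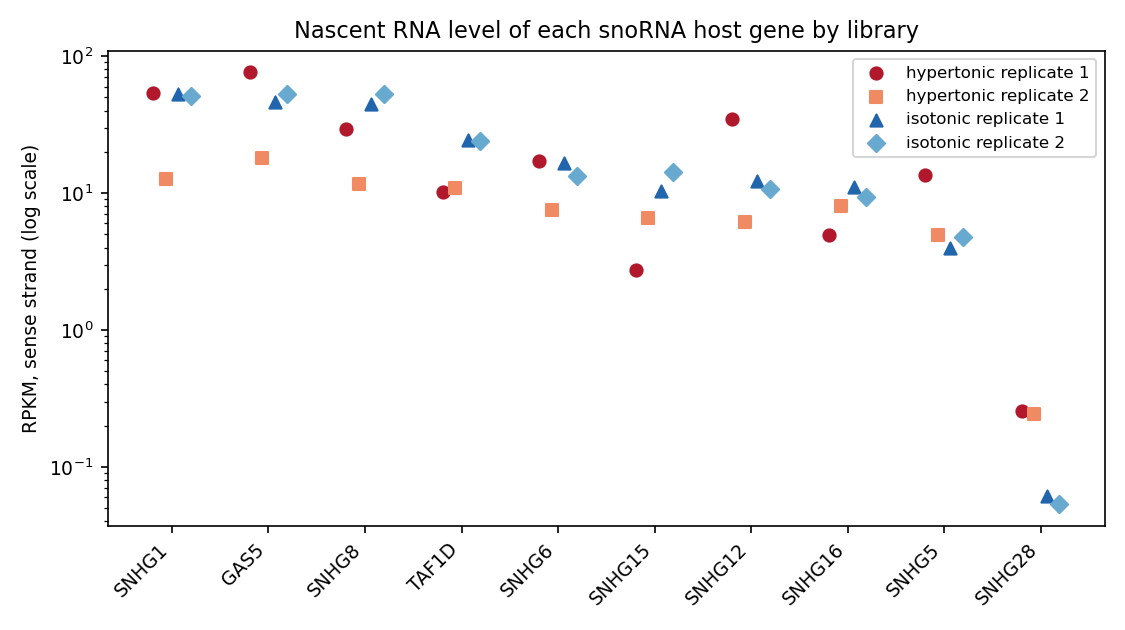
Nascent level of each host in the 4 libraries, as the authors' deposited RPKM on a log axis, with genes ordered by isotonic mean and 1 symbol per library. The isotonic symbols nearly coincide for most genes, whereas the hypertonic symbols are far apart for GAS5 (76.2 and 18.0), SNHG1 (54.0 and 12.8) and SNHG12 (34.8 and 6.15).

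No host passed the edgeR test of hypertonic against isotonic libraries. The edgeR quasi-likelihood test called 0 of the 10 at an adjusted p under 0.05, and 0.0% of all 21238 tested genes were called. Across all tested genes 427 lower and 1889 higher genes had an unadjusted p under 0.05. DESeq2 called 731 genes over the whole table, of which SNHG28 was the only host, and limma-voom called 0. Fitted values were negative for 6 hosts and positive for 4, with a median log2 fold change (hypertonic over isotonic) of -0.36, beside a median of 0.04 and 47.6% negative over all tested genes. At an unadjusted p under 0.05 there were 2 lower hosts (2.01% of all genes were lower at that level) and 1 higher host (8.89% of all genes). In CPM, the hypertonic pair was entirely below the isotonic pair for 4 hosts, SNHG8, SNHG15, SNHG16 and TAF1D, where 17.5% of all tested genes did so. It was entirely above for SNHG28 alone, where 22.5% of genes did so. Among all tested genes of the noncoding types that the hosts have, 6.39% were entirely below and 40.4% entirely above. In bulk RNA, fewer cells making a transcript and less transcript per cell cannot be told apart.

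The hosts could be set apart by how far the hypertonic libraries lay from each other. TAF1D, SNHG15, SNHG16 and SNHG28 had hypertonic libraries on the same side of the isotonic pair and within 1 of each other on the log2 CPM scale. GAS5, SNHG1, SNHG6, SNHG8, SNHG12 and SNHG5 were higher in hypertonic replicate 1 than in replicate 2 by 1.64 or more on that scale. These sets were drawn after their values were seen.

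TAF1D measured 10.2 and 11.0 RPKM in the hypertonic libraries and 24.5 and 23.9 RPKM in the isotonic ones. The hypertonic libraries were close to each other and well under the isotonic pair. In CPM the means were 84.7 ± 14.9 and 198 ± 8.89 (SD, n = 2 each), which gave a log2 fold change of -1.22 ± 0.38 (SE), with an edgeR adjusted p of 0.293 over all genes. Without hypertonic replicate 2 the value was -1.06 and the adjusted p 0.0177, and without hypertonic replicate 1 it was -1.45 with an adjusted p of 0.0881. The deposited TAF1D interval (ENSG00000166012, chr11:93735567-93741945, minus strand) covers 6379 bases and no other gene's entry overlaps it on that strand. The RefSeq gene spans 11302 bases and runs on past the 3′ end of that interval, and the region left out holds the 8 snoRNAs.

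SNHG15, host of SNORA9, measured 2.72 and 6.56 RPKM in the hypertonic libraries and 10.3 and 14.3 RPKM in the isotonic ones. Hypertonic replicate 1 was the lowest, opposite to its place for most of the other hosts. The CPM means were 20.9 ± 7.97 against 60.4 ± 17.6 (SD, n = 2 each), and the fitted log2 fold change was -1.53 ± 0.50 (SE) with an edgeR adjusted p of 0.309. Without hypertonic replicate 2 it was -1.99 with an adjusted p of 0.00803, and without hypertonic replicate 1 it was -1.22 with an adjusted p of 0.125. The gene lies at chr7:44983023-44986961 on the minus strand (ENSG00000232956).

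SNHG16, which carries the C/D snoRNAs SNORD1A, SNORD1B and SNORD1C, measured 4.98 and 8.03 RPKM in hypertonic against 11.0 and 9.29 RPKM in isotonic libraries. The groups did not overlap, but the gap between the higher hypertonic and the lower isotonic library was small. Its CPM means were 58.2 ± 6.24 and 95.3 ± 5.42 (SD, n = 2 each), for a fitted log2 fold change of -0.71 ± 0.39 (SE) with an edgeR adjusted p of 0.589. It lies at chr17:76557769-76565348 on the plus strand (ENSG00000163597).

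SNHG8, whose intron holds the H/ACA snoRNA SNORA24, measured 29.3 and 11.7 RPKM in hypertonic and 44.8 and 52.8 RPKM in isotonic libraries. Both hypertonic libraries were below the isotonic ones, at distances that differed strongly. The CPM means were 27.3 ± 21.3 and 61.8 ± 11.1 (SD, n = 2 each), and the fit gave a log2 fold change of -1.18 ± 0.60 (SE) with an edgeR adjusted p of 0.548. Without hypertonic replicate 1 the value was -2.37 and without replicate 2 it was -0.55. SNHG8 lies at chr4:118278709-118279823 on the plus strand (ENSG00000269893).

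GAS5 measured 76.2 and 18.0 RPKM in the hypertonic libraries and 46.2 and 53.1 RPKM in the isotonic ones. The highest and the lowest of the 4 values were both hypertonic, so the groups overlapped and the spread within the hypertonic group exceeded the difference between groups. CPM means of 327 ± 328 and 318 ± 51.7 (SD, n = 2 each) gave a log2 fold change of 0.04 ± 0.69 (SE) and an edgeR adjusted p of 0.999. Its direction rested on which hypertonic library was used: without replicate 2 it was 0.81 with an adjusted p of 0.0310, and without replicate 1 it was -1.78 with an adjusted p of 0.0792. Its direction was also negative with limma-voom and the replicate block (-0.45 each), without isotonic replicate 1 (-0.13), with no filter (-0.035) and with the constant behind the RPKM values as library size (-0.076). GAS5 lies at chr1:173863900-173868882 on the minus strand (ENSG00000234741), with no overlapping entry.

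SNHG1, host of SNORD22 and SNORD25 to SNORD31, measured 54.0 and 12.8 RPKM in hypertonic and 53.3 and 51.0 RPKM in isotonic libraries. Hypertonic replicate 1 was close to the isotonic level and replicate 2 was far below it. The CPM means were 154 ± 154 and 221 ± 7.20 (SD, n = 2 each), with a log2 fold change of -0.52 ± 0.68 (SE) with an edgeR adjusted p of 0.932. Without hypertonic replicate 1 it was -2.33 and without replicate 2 it was 0.25. It was -1.03 with limma-voom, -1.02 with the replicate block and -0.30 with upper-quartile factors. SNHG1 lies at chr11:62851988-62855914 on the minus strand (ENSG00000255717), and 3315 of its 3927 bases were counted to it, with 6 nested snoRNA entries holding bases of their own.

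SNHG12, host of SNORA16A, SNORA44, SNORA61 and SNORD99, measured 34.8 and 6.15 RPKM in hypertonic and 12.2 and 10.8 RPKM in isotonic libraries. It had the widest hypertonic gap among the 10 hosts, at 2.95 on the log2 CPM scale, with the isotonic libraries lying between. The CPM means of 115 ± 125 and 58.4 ± 1.46 (SD, n = 2 each) gave a log2 fold change of 0.97 ± 0.76 (SE) with an edgeR adjusted p of 0.780. Leaving out hypertonic replicate 2 gave 1.79 with an adjusted p of 0.00170, and leaving out replicate 1 gave -1.21. The value was 0.30 with limma-voom and 0.32 with the replicate block. It lies at chr1:28578538-28582983 on the minus strand (ENSG00000197989).

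SNHG5, which carries SNORD50A and SNORD50B, measured 13.6 and 4.93 RPKM in hypertonic and 3.98 and 4.77 RPKM in isotonic libraries. In RPKM hypertonic replicate 2 lay just above both isotonic libraries, as both hypertonic libraries did for 23.5% of all tested genes. In CPM it lay between the isotonic libraries, at 92.7 against 86.3 and 113, so the order depends on the scaling. CPM means of 223 ± 184 and 99.7 ± 19.0 (SD, n = 2 each) gave a log2 fold change of 1.16 ± 0.59 (SE) with an edgeR adjusted p of 0.542. Dropping hypertonic replicate 2 gave 1.82 with an adjusted p of 0.00173, and without replicate 1 it was -0.14. The interval is chr6:85660950-85678736 on the minus strand (ENSG00000203875).

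SNHG6, host of SNORD87, measured 17.1 and 7.52 RPKM in hypertonic and 16.6 and 13.4 RPKM in isotonic libraries. The groups overlapped. CPM means of 76.6 ± 56.1 and 88.5 ± 7.71 (SD, n = 2 each) gave a log2 fold change of -0.21 ± 0.54 (SE) with an edgeR adjusted p of 0.990. It was -1.30 without hypertonic replicate 1, 0.39 without replicate 2 and 0.0065 with upper-quartile factors. Limma-voom gave -0.44, the replicate block -0.43 and total counts -0.09. SNHG6 lies at chr8:66921684-66926398 on the minus strand (ENSG00000245910).

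SNHG28 was the host with the highest fitted value and the lowest level. It measured 0.257 and 0.243 RPKM in hypertonic and 0.0617 and 0.0535 RPKM in isotonic libraries, from 179, 131, 61.4 and 27.7 expected counts. Both hypertonic libraries were above both isotonic ones. The CPM means were 6.35 ± 1.71 and 1.47 ± 0.0361 (SD, n = 2 each), which gave a log2 fold change of 2.11 ± 0.69 (SE) with an edgeR adjusted p of 0.309. DESeq2 gave 2.09 with an adjusted p of 0.0476, where it called 3.32% of tested genes as higher. Fitted without hypertonic replicate 2, edgeR gave 2.35 with an adjusted p of 0.0114, and without replicate 1 it gave 1.77 with an adjusted p of 0.121. SNHG28 lies at chr1:159834474-159855347 on the minus strand (ENSG00000188004) and shares bases on that strand with the protein-coding gene VSIG8 (ENSG00000243284), which measured 0.114 and 0.0717 RPKM in hypertonic and 0.0219 and 0.0299 RPKM in isotonic libraries. The next gene upstream on the strand, AL590560.1, measured 0.0977 and 0.137 RPKM in hypertonic and 0.0723 and 0.0913 RPKM in isotonic libraries. Its nested SNORD64 entry had at most 1.10 counts in any library.

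Of the 10 hosts, SNHG28 was thus the only one whose deposited interval overlapped a same-strand entry other than a snoRNA. Some deposited intervals are shorter than the annotated gene, and overlap outside them was not read. Besides AL590560.1, the only nearest upstream gene on the same strand within 10 kb of a host was AC015802.5, 6018 bases before SNHG16, with at most 2.00 counts in a library.

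**Figure D2:**
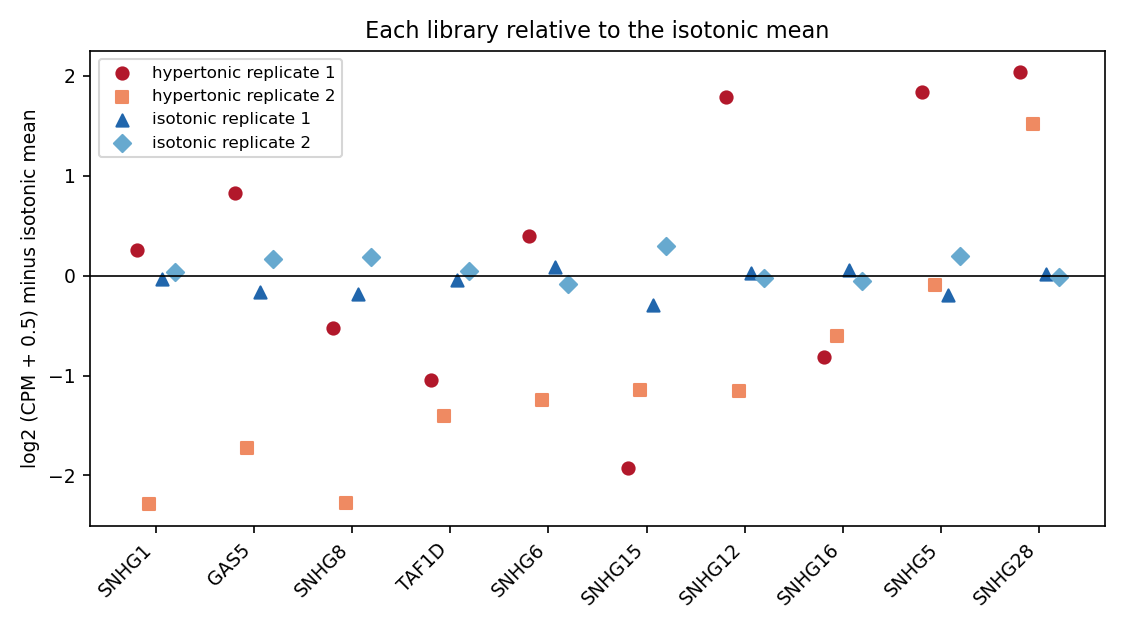
Each library's log2 (CPM + 0.5) minus the isotonic mean of that gene, with 1 symbol per library and the isotonic mean at 0. Hypertonic replicate 2 sits below 0 for every host except SNHG28, with a median of -1.20, whereas hypertonic replicate 1 lies on both sides of 0, with a median of 0.32.

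The gap between the hypertonic libraries was wide at GAS5, SNHG1, SNHG5, SNHG6, SNHG8 and SNHG12, and not at SNHG16, TAF1D and SNHG28, where it was below the median of all tested genes. Replicate 1 was above replicate 2 in 8 of the 10 hosts, where 46.8% of all tested genes had that order, and the median distance between them was 1.70 on the log2 scale against 0.76 over all tested genes. GAS5 (2.55), SNHG1 (2.54) and SNHG12 (2.95) each differed by at least 2 on the log2 scale with replicate 1 higher, as 2.87% of all tested genes did. Together the 10 hosts took 0.161% and 0.0581% of sense counts in the hypertonic libraries and 0.110% and 0.113% in the isotonic ones. The isotonic share lay between the hypertonic ones.

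Leaving out a hypertonic library therefore changed the picture of the set. Without hypertonic replicate 1, 9 hosts were negative and 1 positive, with a median log2 fold change of -1.26. edgeR called 0 of them and 0 genes in all, while 9 hosts had an unadjusted p under 0.05, as 22.6% of 22533 tested genes did. Without hypertonic replicate 2, 4 were negative and 6 positive, with a median of 0.32. In that fit edgeR called 6 hosts, SNHG15 and TAF1D as lower and GAS5, SNHG5, SNHG12 and SNHG28 as higher, where it called 10.3% of 22940 tested genes as lower and 11.1% as higher. In these fits the lone hypertonic library is assumed to vary like the isotonic pair. SNHG8, SNHG15, SNHG16 and TAF1D kept a negative value, and SNHG28 a positive one, without either hypertonic library.

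**Figure D3:**
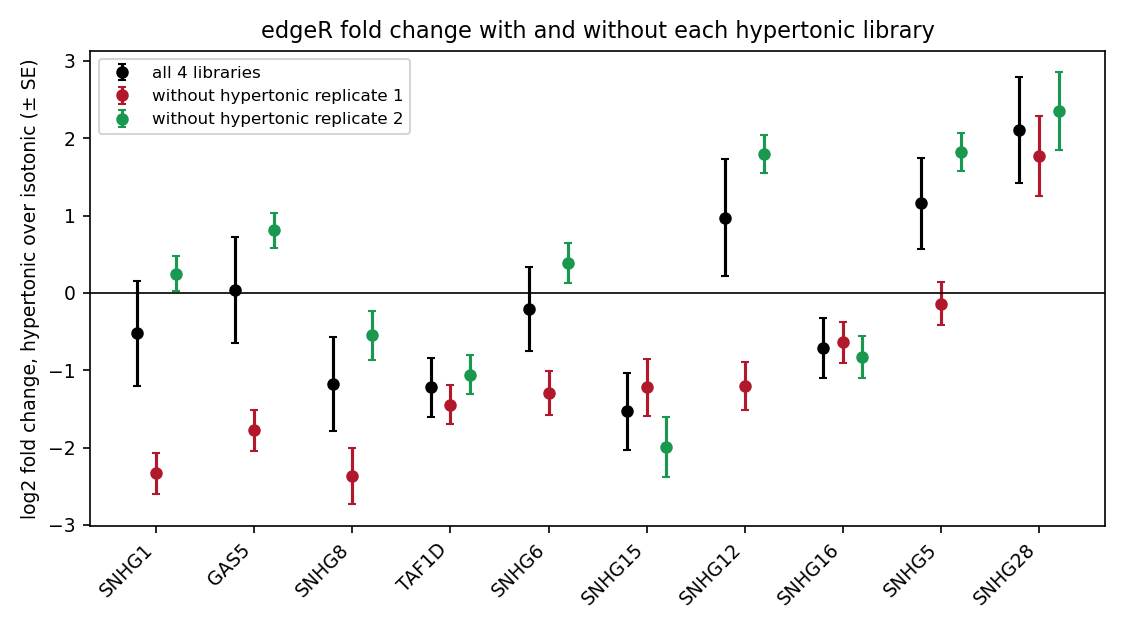
Fitted log2 fold change, hypertonic over isotonic, from edgeR with all 4 libraries and without each hypertonic library, with error bars of 1 SE. The values for GAS5, SNHG1, SNHG6, SNHG12 and SNHG5 change sign between the fits, and those for SNHG8, TAF1D, SNHG15, SNHG16 and SNHG28 do not.

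Some of the snoRNAs at these loci have entries of their own in the deposited tables, 24 entries for 8 hosts, and GAS5 and SNHG15 had none that could be used. The counted length of a host with an entry inside it is shorter than its interval, from which it was read that the entry's bases do not count towards the host. The sources used here do not state how this was done. GAS5 was counted over its whole interval, and SNHG5 lost the bases of SNORD50B only. Of the 24, 22 passed the filter, 18 had a negative fitted value and 4 a positive one, and edgeR called 0 at an adjusted p under 0.05. The fitted value had the sign of its host in 22 of 22. Host and entry share a library, so this is a description of each locus and no independent replicate. These entries count any labelled read over the snoRNA bases, and whether a read came from the excised intron, the precursor or the mature snoRNA cannot be told apart.

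The 8 TAF1D entries together measured 6.62 and 7.18 RPKM in hypertonic and 13.6 and 13.2 RPKM in isotonic libraries. The fitted values of the 8 were all negative, from -1.87 for SNORD6 to -0.70 for SNORA25. Each had both hypertonic libraries below both isotonic ones in CPM, as did 17.5% of all tested genes. The 8 belong to 1 locus, and counts were low, with 3.17 and 11.0 for SNORD6 in the hypertonic libraries. All 8 lie beyond the 3′ end of the deposited TAF1D interval, so both of these portions of the locus had the same order of groups. SNORD1A and SNORD1B in SNHG16 together measured 5.31 and 4.89 RPKM in hypertonic and 8.39 and 6.10 RPKM in isotonic libraries. SNORD1A did not overlap between groups, whereas SNORD1B did, at 3.84 and 4.15 RPKM against 4.67 and 3.02 RPKM. SNORA24 in SNHG8 measured 31.6 and 6.57 RPKM in hypertonic and 34.8 and 34.1 RPKM in isotonic libraries. Hypertonic replicate 1 was close to the isotonic level there.

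At the hosts with widely spaced hypertonic libraries, hypertonic replicate 1 was also the higher one over the pooled snoRNA entries. The 6 entries of SNHG1 together measured 64.6 and 16.8 RPKM in hypertonic and 71.9 and 68.5 RPKM in isotonic libraries. Their level per length was 1.20, 1.32, 1.35 and 1.34 times that of SNHG1 itself, the first pair of values being hypertonic and the last isotonic. That ratio varied more at SNHG5, where it was 6.45, 2.36, 8.03 and 5.73 in the same order, and at SNHG8, where it was 1.08, 0.562, 0.776 and 0.646. The 4 entries of SNHG12 measured 84.6 and 11.3 RPKM in hypertonic and 21.6 and 19.0 RPKM in isotonic libraries, with SNORA44 alone at 138 and 16.6 RPKM against 37.5 and 33.5 RPKM. SNORD50B measured 87.4 and 11.7 RPKM against 32.0 and 27.3 RPKM. Hypertonic replicate 2 was thus below the isotonic pair at SNORD50B, while over the long SNHG5 interval it was level with it. SNORD87 in SNHG6 had 71.4 and 27.5 expected counts in hypertonic and 89.4 and 51.6 in isotonic libraries.

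**Figure D4:**
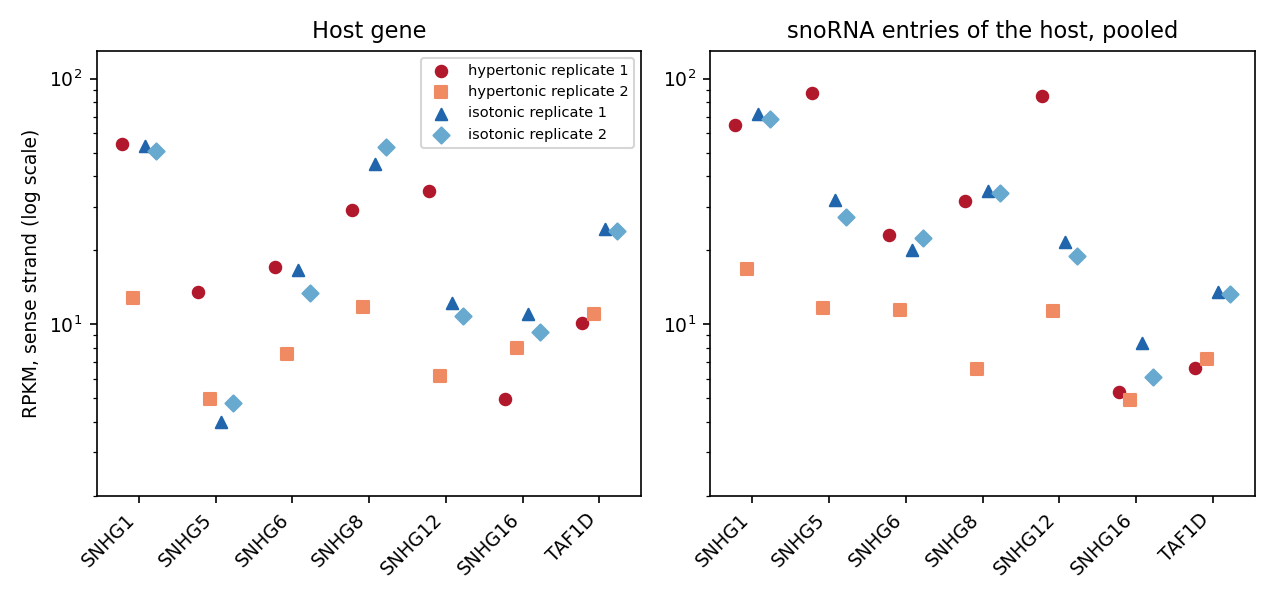
Level per length of 7 hosts (left) and of their snoRNA entries pooled (right), as RPKM on a log axis with 1 symbol per library. For SNHG1 and SNHG12 hypertonic replicate 2 is far below replicate 1 in both panels, and for TAF1D both hypertonic libraries are below both isotonic ones in both panels.

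Reads on the host's strand were also present after the 3′ end of its deposited interval, and this readout was chosen after the values had been seen. It was taken from the antisense entries of opposite-strand genes lying within 10 kb of the end and at least 500 bases long, expressed as a percentage of the host's own RPKM. For the nearest such entry, the percentage was higher in both hypertonic libraries than in both isotonic ones at 7 of 7 hosts that had one. The background is high: 63.1% of 7240 genes with such an entry showed that order, and 84.4% of the 2154 with an isotonic level of at least 1 RPKM. A ratio to the host rises where the host is lower, so the entry's own level is given beside it.

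Past GAS5, the entry at GAS5-AS1 held 72.1% and 76.0% of the GAS5 level in hypertonic and 51.5% and 50.6% in isotonic libraries. Its own level overlapped between groups, at 54.9 and 13.7 RPKM against 23.8 and 26.9 RPKM. After SNHG16, the entry at AC015802.6 held 41.9% and 46.2% in hypertonic and 16.2% and 14.4% in isotonic libraries, and that at ST6GALNAC2 36.8% and 12.5% against 2.09% and 2.70%. The AC015802.6 entry itself was at 2.08 and 3.71 RPKM against 1.79 and 1.34 RPKM. The ST6GALNAC2 entry itself was at 1.83 and 1.00 RPKM against 0.231 and 0.251 RPKM.

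The nearest entries after the other hosts held smaller percentages than the nearest entries after GAS5 and SNHG16, in the same order. After TAF1D, the entry at CEP295 held 2.32% and 3.26% in hypertonic and 0.432% and 0.576% in isotonic libraries, from 0.236 and 0.358 RPKM against 0.106 and 0.137 RPKM. A small portion of that entry lies within TAF1D as RefSeq annotates it, since the deposited interval is shorter. After SNHG8, the entry at PRSS12 held 5.05% and 8.47% against 1.92% and 1.71%, from 1.48 and 0.991 RPKM against 0.858 and 0.901 RPKM. After SNHG6, the entry at MCMDC2 measured 0.369 and 1.07 RPKM against 0.194 and 0.125 RPKM, or 2.2% and 14.2% of the host against 1.17% and 0.931%. After SNHG12, the entry at TRNAU1AP held 3.15% and 12.3% against 2.53% and 2.93%, from 1.10 and 0.759 RPKM against 0.310 and 0.316 RPKM. After SNHG28, the entry at SLAMF8 had 14.0 and 3.67 expected counts in hypertonic libraries and was listed at 0 in both isotonic ones. Its hypertonic values were 20.2% and 7.24% of the low SNHG28 level. In CPM the nearest entry was itself above both isotonic libraries in both hypertonic ones for MCMDC2, TRNAU1AP, AC015802.6, CEP295 and SLAMF8, and not for GAS5-AS1 and PRSS12, where 63.7% of the 7240 genes showed that order. The hypertonic libraries also held the larger share of antisense counts over the whole table, as given above, and its part in these values was not tested.

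**Figure D5:**
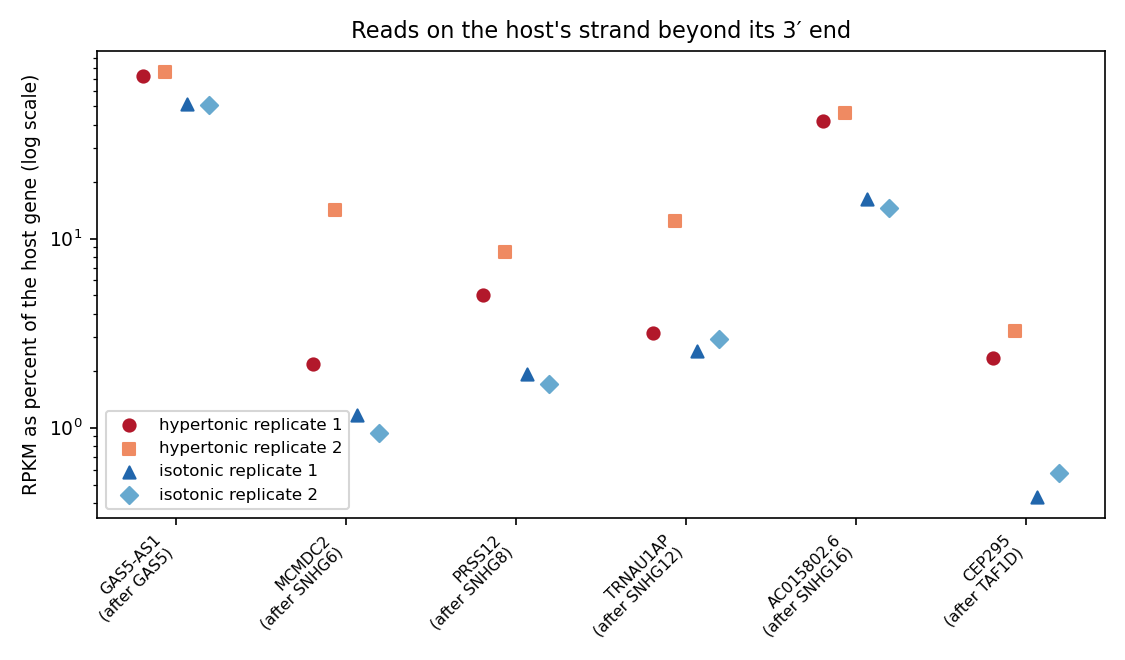
RPKM of the nearest entry on the host's strand after the 3′ end of 6 hosts' deposited intervals, as a percentage of the host's RPKM on a log axis, with 1 symbol per library. Hypertonic symbols lie above isotonic ones at each entry, from 72.1% and 76.0% against 51.5% and 50.6% at GAS5-AS1 to 2.32% and 3.26% against 0.432% and 0.576% at CEP295.

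The same fit gave values for genes related to the hosts by function. Beside the counts given without hypertonic replicate 2, 21.4% of all 22940 genes tested in that fit were called. Of 25 other noncoding snoRNA hosts 21 were tested, of which 15 had a negative and 6 a positive fitted value, with a median of -0.91. In CPM, 12 had both hypertonic libraries below both isotonic ones. That order was found for 17.5% of all tested genes and 6.39% of all tested genes of the same noncoding types. The 3 with the smallest p were SNHG32 at -1.36 ± 0.42, SNHG17 at -1.24 ± 0.52 and CYTOR at -0.97 ± 0.43 (SE), and edgeR called 0 of the 21. SNHG17 measured 23.2 and 61.2 CPM in hypertonic against 84.3 and 115 CPM in isotonic libraries, with hypertonic replicate 1 the lower, as at SNHG15. The median was -1.07 without hypertonic replicate 1, with 19 of 21 negative. It was -0.58 without hypertonic replicate 2, where edgeR called 6. All tested genes of the same noncoding types had a median of 0.58, with 25.2% negative.

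Protein-coding genes that carry snoRNAs include many that encode ribosomal proteins. Of 53, 52 were tested, 41 were negative and 11 positive, the median was -0.33 and edgeR called 0. The split depended on scaling, with 28 negative and 24 positive under upper-quartile factors and 29 and 23 under total counts, where the median of all genes stood at 0.23 and 0.26. RPL21, which encodes a ribosomal protein of the large subunit, measured 17.9 and 25.6 CPM in hypertonic against 81.2 and 103 CPM in isotonic libraries, which the fit put at -2.08 ± 0.45 (SE) with an edgeR adjusted p of 0.192. RPS13 at -1.51 ± 0.46 and RPL30 at -1.28 ± 0.47 had the next smallest p. In both, as in RPL21, the hypertonic libraries were close together and below the isotonic pair. Without hypertonic replicate 2 edgeR called 24 of the 52, and without replicate 1 it called 0.

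Among 20 proteins that bind snoRNAs or assemble them into particles, 14 were negative and 6 positive, with a median of -0.39. NOP56, NOP58 and DKC1 are also among the protein-coding hosts above. In CPM, 10 of the 20 had both hypertonic libraries below both isotonic ones, as did 17.5% of all tested genes. The median of the 20 was -0.22 with upper-quartile factors, -0.14 with total counts and -0.87 without hypertonic replicate 2. Without hypertonic replicate 1, 11 were negative and 9 positive. The smallest p-values belonged to GAR1, a core protein of H/ACA particles, at -1.03 ± 0.52, to the H/ACA assembly factor NAF1 at -0.69 ± 0.40 and to the C/D assembly factor ZNHIT3 at -1.24 ± 0.68 (SE). edgeR called 0 of the 20 with all libraries and without hypertonic replicate 1, and 9 without hypertonic replicate 2. Hypertonic replicate 1 was the higher one for 4 of the 20, against 8 of 10 for the hosts described here. Of 10 factors of nonsense-mediated decay, 7 were negative and 3 positive, with a median of -0.20 and 0 calls. The split was 5 to 5 under upper-quartile factors and under total counts. In those fits 34.9% and 32.8% of all tested genes were negative, with medians of 0.23 and 0.26. SMG8 stood at 0.66 ± 0.57 and UPF1 at -0.62 ± 0.73 (SE). edgeR called 2 of the 10 without hypertonic replicate 2.

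A mean centred log2 CPM profile over the 4 libraries was taken from the 9 hosts whose deposited interval overlapped only nested snoRNAs or nothing. Among 11075 candidates, the protein-coding genes with the nearest profile were PELI2, VGLL2, CADM1, GPC6 and ARID5B. Their Euclidean distances were 0.106, 0.119, 0.163, 0.184 and 0.191. PELI2 measured 116 and 44.2 CPM in hypertonic and 99.6 and 107 CPM in isotonic libraries. Like the mean of the hosts, each of the 5 had its lowest value in hypertonic replicate 2. With only 4 libraries such a likeness says little beyond that order.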

How the data were processed

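Nascent RNA was measured by Bru-seq in 2 hypertonic and 2 isotonic libraries, grouped by their labels. Per the submitters' processing notes the tools were bedtools 2.16.2, STAR 2.5.3a, Bowtie2 2.3.3 and CASAVA 1.8.2 on GRCh38 (hg38), and neither the step each served nor the annotation release is given there. The authors deposited an expected count of reads per gene and strand, which need not be whole, and an RPKM value, which is the deposited count per gene length and per 1 constant per library, larger than the library's summed counts. What it counts is not stated, the tables have no headers, and both units were read from the values. The labels mention strand-specific reads for certain samples without naming them. Entries pooling bases shared by genes (3.11 to 3.48% of counts) were left out.

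Strand came from GENCODE 29. Sense expected counts were rounded and tested with edgeR 4.0.16 (R 4.3.3) with TMM factors (0.947, 1.22, 0.974 and 0.887), filterByExpr and the quasi-likelihood test, adjusted over all 21238 tested genes by Benjamini-Hochberg at 0.05. The SE is the size of the log2 fold change over the square root of F. Between single values, 2 against 2 libraries cannot give an exact permutation p below 0.333. Sense counts were 25068625, 20870648, 41932649 and 21865138, and the fewest counts for a host in a library were 27.7. Reads carry no molecular identifiers in the labels. Alternatives were other scalings, DESeq2 1.42.0, limma-voom (limma 3.58.1), no filter, genes without overlap, a replicate block and leaving out each library.

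The hosts and the gene lists were chosen with earlier results of these data known. Named genes are all hosts, genes overlapping them, the nearest upstream gene within 10 kb, the 3 listed genes with the smallest p per list, and the 5 protein-coding genes of nearest profile, of which some are not reported here. The downstream entries, the transcript starts and the scaling by the RPKM constant were added after seeing values. RefSeq sequences are of GRCh38.p14 and transcript starts of GENCODE 29. Python 3.11.15 with pandas 2.3.3 and matplotlib 3.10.9 read the tables and drew the figures.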

Additional observations from a re-analysis of the deposited data

How the results depend on the processing

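All alternatives that were planned could be run. The count of all genes called (0) was 731 with DESeq2, 916 with no filter and 384 (380 higher, 4 lower) with the replicate block. It ranged from 0 to 4918 when 1 library was left out, with 6 and 4 genes without isotonic replicates 1 and 2. The count of hosts called (0) was 1 with DESeq2 and 0 to 6 when 1 library was left out. The median over the hosts (-0.36, beside 0.04 over all tested genes) was -0.15 with upper-quartile factors, where that of all genes was 0.23. The host median was -0.59 with limma-voom and -0.58 with the replicate block, beside -0.051 and -0.047 over all genes. Over the 3 hosts tested among genes without overlap (GAS5, SNHG15 and TAF1D) it was -1.22, and that fit has no value for the other 7. With 1 library left out, the host median ran from -1.26 to 0.32. Directions turned for SNHG6 with upper-quartile factors (0.0065), and for GAS5 with limma-voom (-0.45), no filter (-0.035), the replicate block (-0.45) and the RPKM constant as library size (-0.076). With 1 library left out, GAS5 ranged from -1.78 to 0.81, SNHG1 from -2.33 to 0.25, SNHG5 from -0.14 to 1.82, SNHG6 from -1.30 to 0.39 and SNHG12 from -1.21 to 1.79. The cause was not tested. Deviations of libraries with the same replicate number correlated at 0.02, so the numbers were not taken as pairing, and with the block 7 hosts were negative, 3 positive and 0 called. Depth limits SNHG28 and its SNORD64 entry most, and the 2 libraries per group limit every host.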

Other observations

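Same-strand genes within 10 kb after a host's deposited interval were read at 4 hosts. PKMP3, 343 bases after SNHG5, had 36.6 and 10.0 expected counts in hypertonic libraries and was listed at 0 in both isotonic ones. MYO1G, 3924 bases after SNHG15, measured 0.0629 and 0.582 RPKM in hypertonic and 0.0354 and 0.101 RPKM in isotonic libraries, so the groups overlapped. AC015802.1, 4443 bases after SNHG16, measured 2.29 and 2.65 RPKM against 0.781 and 0.824 RPKM. AP001273.1, 5761 bases after the TAF1D interval, measured 2.56 and 7.83 RPKM against 2.99 and 2.55 RPKM, with overlap. In CPM it was at 11.9 and 26.2 in hypertonic against 11.5 and 10.8 in isotonic libraries, without overlap, so the order depends on the scaling.

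The strand opposite to a host carried few reads. As a share of the counts on both strands together, antisense counts were 8.14% and 2.88% for TAF1D in hypertonic libraries and 0.662% and 1.00% in isotonic ones. For SNHG12 they were 0.681% and 7.23% against 1.85% and 0.714%, with no common order. SNHG16 had an antisense count above 0 only in isotonic replicate 1, at 2.00.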
